A study of Homo sapiens with 6 samples.

Results

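Small non-coding RNAs of the nucleolus, the Cajal bodies, the spliceosome, the 7SK particle and the Ro particle were followed in a human B cell line. The members were all array probes whose annotated gene symbol begins with SNORD, SNORA, SCARNA, RNU, RN7SK or RNY, whatever their measured values. This rule took 325 of the 47321 probes that had a value. They comprised 178 box C/D small nucleolar RNA (snoRNA) probes (SNORD), 102 box H/ACA snoRNA probes (SNORA), 24 small Cajal body RNA probes (SCARNA), 15 probes with RNU symbols, 2 for 7SK and 4 for Y RNAs. Testing required detection (a detection p-value below 0.05) on 3 or more of 6 arrays, which 142 members, of 138 genes, and 19073 probes in all met.

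The cells were Mec-1, an established line described in the labels as resembling chronic lymphocytic leukaemia (CLL) and as constitutively positive for SLAMF1, the surface receptor CD150. One group of 3 samples carried a scrambled short hairpin RNA (shRNA) cassette, and the other 3 were a line variant made with an shRNA against SLAMF1 in the pGFP-V-RS vector. Both were cultured in complete medium, and the design text calls the samples of each group biological replicates. Separate clones or cultures are not described, so p-values measure only the spread between these samples, which may be technical. RNA of whole cultures was hybridised, so that fewer cells with an RNA and less of it per cell cannot be told apart. All 6 arrays were on 1 chip with the control samples in the first positions, and position and group cannot be told apart.

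SLAMF1 was not lower on the arrays labelled SLAMF1 shRNA. Its single probe read 8.26, 8.38 and 8.01 on the log2 scale on the control arrays and 8.70, 8.44 and 8.64 on the arrays labelled SLAMF1 shRNA, with no overlap (log2 difference 0.38, SE 0.17; limma adjusted p = 0.171). The groups are therefore named by their labels, and every direction below is that of the arrays labelled SLAMF1 shRNA relative to the control arrays. Between 17192 and 19586 probes were detected per array. The lowest number came from replicate 2 labelled SLAMF1 shRNA, which also stood apart in its profile: over all tested probes it correlated at 0.928 and 0.940 with the other samples of its group, which correlated at 0.994 with each other, and control samples correlated at 0.982 to 0.993. Of the B cell marker genes, 6 of 7 were detected on all 6 arrays, among them CD79A, CD79B, CD74 and CD22. The remaining gene, PAX5, was detected on no control array and on 1 array labelled SLAMF1 shRNA. Of the T cell markers, 1 of 7 was detected on 3 or more arrays, and CD3D, CD3E, CD4, CD5 and CD8A on none. No erythroid marker (0 of 4) was detected on any array, and 4 of 6 monocyte and macrophage markers were detected on 3 or more arrays but none on all 6.

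Box C/D snoRNAs guide ribose methylation of ribosomal RNA and box H/ACA snoRNAs guide its pseudouridylation, whereas the RNAs of Cajal bodies carry 1 or both box types and guide the same modifications on spliceosomal RNAs. Most of them are cut out of introns of longer host genes. The U3 and U13 snoRNAs, the spliceosomal RNAs, 7SK, which holds the elongation factor P-TEFb inactive, and the Y RNAs, which are bound by the Ro60 and La proteins, are mostly transcribed from promoters of their own. The labelling kit named in the labels primes cDNA from poly(A) tails, which mature RNAs of these classes generally lack. Whether a probe's signal came from mature RNA, a tailed precursor or a retained intron was not tested.

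Detection differed by class. Among the tested probes were 56 of 178 SNORD, 56 of 102 SNORA, 13 of 24 SCARNA, 11 of 15 RNU, 2 of 2 RN7SK and 4 of 4 RNY probes. On all 6 arrays 68 members were detected, on 3 to 5 arrays 74, on 1 or 2 arrays 60, and on none 123. The imprinted SNORD113 and SNORD114 clusters on chromosome 14 had 1 tested probe of 24, SNORD114-2, with a log2 difference of -0.16 (limma adjusted p = 0.538), and the SNORD115 and SNORD116 clusters on chromosome 15 had 0 of 7. None of the 183 untested members read above 5.33 on the log2 scale on any array, against a floor of 4 set by the background offset, and none was called in a fit without the detection filter. By annotation the tested SNORD genes had a median length of 78 bases and the tested SNORA genes of 134 bases.

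Across the tested members 25 probes rose and 17 fell at a limma adjusted p under 0.05, Benjamini-Hochberg over all 19073 probes. That is 17.6% and 12% of members, beside 9.24% of all tested probes called higher and 9.42% called lower (18.7% in either direction). The calls divided by class. RNU, RN7SK and RNY probes rose in 12 of 17 cases with a median log2 difference of 1.61, and SCARNA probes in 7 of 13 with a median of 1.16; 0 fell in either class (at an unadjusted p under 0.05, 0 SCARNA probes and 1 of the 17 others were lower). SNORD probes rose in 4 of 56 cases and fell in 13, and SNORA probes rose in 2 of 56 and fell in 4. All 4 SNORD probes that rose were for U3 (SNORD3A, SNORD3C, SNORD3D) or U13 (SNORD13). Of the other 52 SNORD probes, 40 had a negative log2 difference, and their median was -0.35 beside -0.01 over all tested probes. A probe detected in only 1 group passes the filter through that group, so these counts are descriptions. Among the 68 members detected on all 6 arrays 12 rose and 6 fell. Of these, 8 of 13 SCARNA, RNU, RN7SK and RNY probes rose (61.5%) and 0 fell. Of the 55 SNORD and SNORA probes 4 rose and 6 fell (7.27% and 10.9%), near the shares of all tested probes.

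**Figure D1:**
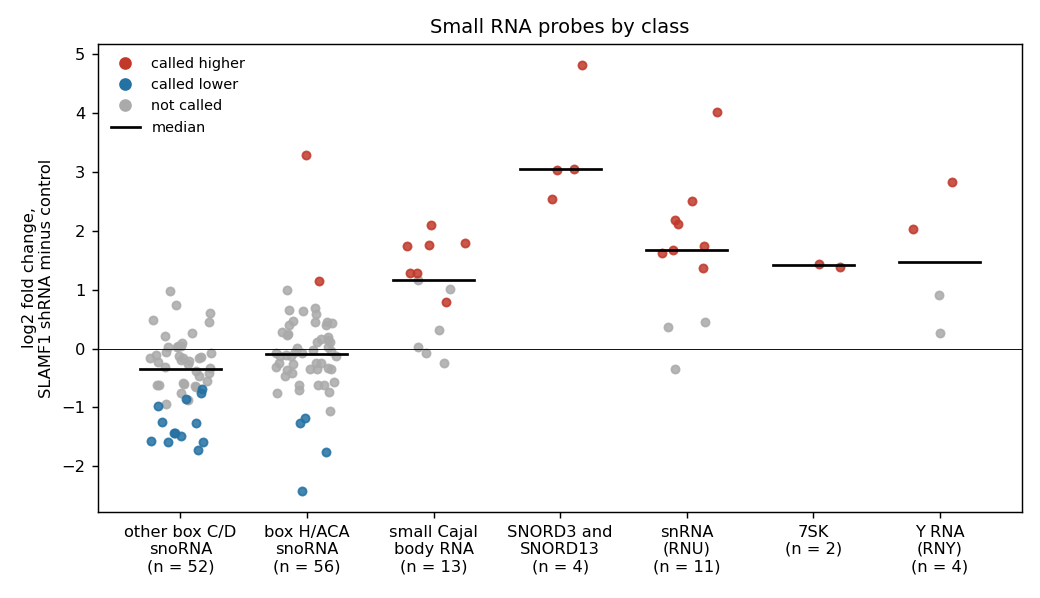
Each point is 1 tested probe. The vertical axis gives the log2 difference, arrays labelled SLAMF1 shRNA minus control, the horizontal axis the class with its number of probes, the colour the limma call, and the bar the class median. SNORD3 and SNORD13 probes lie between 2.54 and 4.81, and the remaining box C/D probes between -1.72 and 0.98.

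The counts depended on single arrays. Leaving out replicate 2 labelled SLAMF1 shRNA left all 25 higher and all 17 lower calls in place, and the totals became 28 and 30 (15.3% and 15.6% of all probes were then called higher and lower). SCARNA probes called higher went from 7 to 9, SNORD probes called lower from 13 to 20 and SNORA probes called lower from 4 to 10. Without any 1 of the control arrays the number of SCARNA probes called higher was 1. In these refits the share of all probes called higher went from 9.24% to 4.99%, 4.65% and 3.86% without control replicates 1, 2 and 3, and that called lower from 9.42% to 5.35%, 4.7% and 3.83%. Without control replicate 3 the RNU, RN7SK and RNY probes called higher fell to 7, SNORD probes called lower to 6 and SNORA probes called lower to 2, and SNORD probes called lower fell to 8 without replicate 3 labelled SLAMF1 shRNA. SNORA probes called higher fell to 1 without any 1 control array and without replicate 3 labelled SLAMF1 shRNA. Every one of the 42 calls kept its direction in every refit that still tested it.

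U13 and U3 were the only box C/D snoRNAs called higher. U13, encoded by SNORD13, acts in processing of the small-subunit ribosomal RNA precursor. SNORD13 read 5.19, 5.39 and 4.99 on the control arrays and 9.68, 10.47 and 9.85 on the arrays labelled SLAMF1 shRNA. The groups were far apart, with every array of the second group above every control array (log2 difference 4.81, SE 0.24; limma adjusted p = 4.24e-05). U3 is an abundant nucleolar RNA that directs the first cleavages of the ribosomal RNA precursor. SNORD3A read 5.66, 5.05 and 5.0 in control and 7.78, 9.11 and 7.98 in the other group, a log2 difference of 3.05 (SE 0.36; limma adjusted p = 0.00152). SNORD3D read 5.73, 5.50 and 5.50 against 8.23, 9.30 and 8.29, a log2 difference of 3.03 (SE 0.30; limma adjusted p = 0.00064). For both, replicate 2 labelled SLAMF1 shRNA was the highest array and the groups did not overlap. SNORD3C was detected on 1 of 3 control arrays and on all 3 others and differed by 2.54 (SE 0.38; limma adjusted p = 0.00438). The U3 genes are near-identical copies, so a probe may detect more than 1 of them. Without replicate 2 labelled SLAMF1 shRNA these 4 log2 differences were 4.58 for SNORD13, 2.65 for SNORD3A, 2.68 for SNORD3D and 2.06 for SNORD3C.

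**Figure D2:**
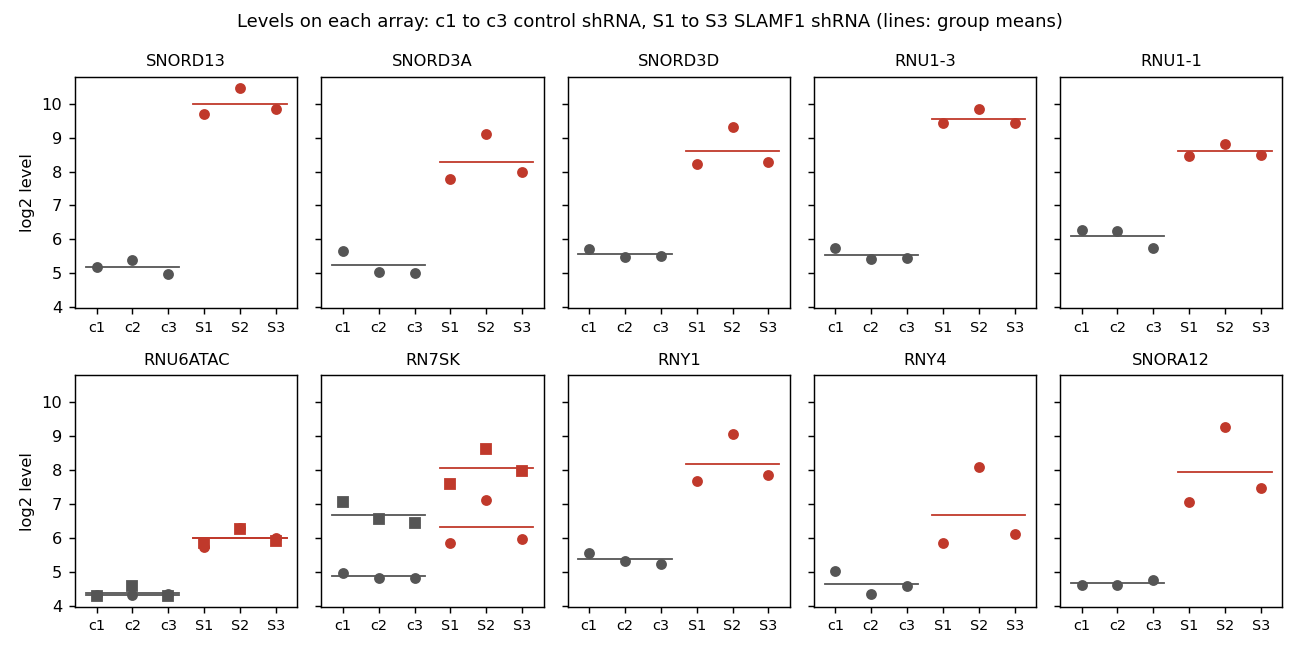
Log2 levels on each array for 10 small RNA genes called higher, with control arrays (c1 to c3) in grey and arrays labelled SLAMF1 shRNA (S1 to S3) in red. Lines are group means, and RNU6ATAC and RN7SK have 2 probes each, drawn as circles and squares. In every panel each S array lies above each control array measured with the same probe, and S2 is the highest.

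Among spliceosomal RNAs the U1 probes moved furthest. U1 recognises the splice donor site of most introns. RNU1-3 read 5.75, 5.43 and 5.46 on the control arrays and 9.42, 9.84 and 9.43 on the arrays labelled SLAMF1 shRNA, a 16.1-fold higher mean (log2 difference 4.01, SE 0.19; limma adjusted p = 3.39e-05). RNU1-1 read 6.29, 6.24 and 5.75 against 8.47, 8.81 and 8.49, with a log2 difference of 2.5 (SE 0.21; limma adjusted p = 0.000338). Neither probe's groups overlapped, and the copies of U1 are too alike for the probes to be assigned to 1 gene with certainty. U4 pairs with U6 in the assembling spliceosome. RNU4-2 read 5.10, 4.74 and 4.35 against 6.07, 7.20 and 6.12 and rose by 1.73 (SE 0.34; limma adjusted p = 0.0126). RNU4-1, a near copy of it, was detected on no control array and on all 3 of the others, where it was at least 2.23-fold higher (limma adjusted p = 0.00933). Both U4 calls were lost without control replicate 3 and that of RNU4-2 also without control replicate 2, with limma adjusted p up to 0.0658 for RNU4-2 and 0.054 for RNU4-1.

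RNAs of the minor spliceosome, which removes a rare class of introns, were split. U11 recognises the donor site of those introns. The 2 probes of RNU11 differed by 2.19 (SE 0.28) and 2.11 (SE 0.24), with limma adjusted p = 0.00201 and 0.00129. The first read 4.5, 4.5 and 4.32 on control arrays and 6.23, 7.26 and 6.38 on the others. U6atac takes the place of U6 in that spliceosome. One RNU6ATAC probe was undetected on every control array and detected on the 3 others, at least 2.86-fold higher (limma adjusted p = 0.00115), and the other differed by 1.61 (SE 0.19; limma adjusted p = 0.00136). RNU4ATAC, the partner of U6atac, read 4.62, 4.19 and 4.54 against 4.94, 4.87 and 4.63. These groups did not overlap, yet the difference of 0.36 (SE 0.19) did not pass the test (limma adjusted p = 0.22). U6 itself forms part of the catalytic core. RNU6-1 read 9.44, 9.20 and 9.19 against 9.03, 10.89 and 9.25. The groups overlapped, with 1 array, replicate 2 labelled SLAMF1 shRNA, above all others, and the log2 difference of 0.44 (SE 0.45; limma adjusted p = 0.539) became -0.14 (limma adjusted p = 0.566) without it. RNU105C, annotated as a snoRNA despite its symbol, was at 4.84 ± 0.06 (SD, n = 3) in control and 4.48 ± 0.03 (SD, n = 3) in the other group (log2 difference -0.35, SE 0.15; limma adjusted p = 0.138).

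The 7SK RNA was measured by 2 probes and both rose. One read 7.05, 6.55 and 6.42 on the control arrays and 7.59, 8.62 and 7.96 on the arrays labelled SLAMF1 shRNA (RN7SK log2 difference 1.38, SE 0.30; limma adjusted p = 0.0174). The other differed by 1.44 (SE 0.33; limma adjusted p = 0.0212). No array of one group fell within the range of the other for either probe. Leaving out control replicate 2 or control replicate 3 ended both calls, as did the fit with no filter on dim probes. The first probe also lost its call without replicate 3 labelled SLAMF1 shRNA and kept it in 14 of 18 alternatives. The second also lost it without control replicate 1, with no background correction, with offset 50 and in the second deposited table. It kept the call in 10 of 17. Over all alternatives the limma adjusted p reached 0.086 for the first probe and 0.091 for the second.

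Y RNAs bind Ro60 and act in RNA quality control and in initiation of DNA replication. RNY1 read 5.56, 5.3 and 5.22 in control and 7.66, 9.04 and 7.85 in the other group, a difference of 2.82 (SE 0.35; limma adjusted p = 0.00187). RNY4 read 5.01, 4.35 and 4.57 against 5.83, 8.08 and 6.11 and rose by 2.03 (SE 0.55; limma adjusted p = 0.0398). Both Y RNAs were highest on replicate 2 labelled SLAMF1 shRNA, without which RNY4 differed by 1.33 (SE 0.20; limma adjusted p = 0.000499). RNY1 kept its call in all 18 alternatives. RNY4 kept it in 8 of 17 and lost it without any 1 control array, without replicate 3 labelled SLAMF1 shRNA and with the replicate block, among others, and its limma adjusted p reached 0.163. RNY5 read 5.02, 4.71 and 4.55 against 4.94, 6.72 and 5.35 (difference 0.91, SE 0.43; limma adjusted p = 0.181). RNY3 read 6.31, 5.11 and 5.38 against 5.55, 6.33 and 5.73 (difference 0.27, SE 0.35; limma adjusted p = 0.636). In RNY5 and RNY3 the groups overlapped, and the 95% intervals of the differences were -0.08 to 1.90 and -0.54 to 1.07, where that of RNY1 was 2.0 to 3.64.

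Small Cajal body RNAs rose in 7 of 13 tested probes, beside 9.24% of all tested probes called higher. Of the 13, 9 did not overlap between groups, all above control (19.6% of all tested probes lay wholly above control). SCARNA12 read 4.53, 4.34 and 4.43 on control arrays and 5.81, 7.66 and 6.14 on the others (difference 2.10, SE 0.44; limma adjusted p = 0.0154). SCARNA9 read 6.26, 5.83 and 5.73 against 7.41, 8.16 and 7.62 (difference 1.79, SE 0.25; limma adjusted p = 0.00296). SCARNA14 and SCARNA16 rose by 1.75 and 1.73, with limma adjusted p = 0.0196 and 0.0143. SCARNA13 rose by 1.29 (SE 0.31; limma adjusted p = 0.0275). In each of these the arrays of the groups were separate and replicate 2 labelled SLAMF1 shRNA was the highest. SCARNA20 and SCARNA23 were undetected on all control arrays and detected on all 3 others, at least 2.05-fold and 1.48-fold higher (limma adjusted p = 0.0481 and 0.0239). SCARNA9 kept its call in all 18 alternatives. The other 6 kept theirs in 8 (SCARNA20) to 11 (SCARNA16) of 17 and lost it without any 1 control array, and the limma adjusted p of SCARNA20 reached 0.168.

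The other 6 SCARNA probes were not called. SCARNA22 read 4.32, 4.62 and 4.36 against 4.86, 6.68 and 5.24 (difference 1.16, limma adjusted p = 0.103), and SCARNA18 read 4.93, 5.01 and 4.84 against 5.29, 6.85 and 5.64 (difference 1.0, limma adjusted p = 0.105). Neither overlapped, and both were called higher without replicate 2 labelled SLAMF1 shRNA, at smaller differences of 0.62 and 0.54 (limma adjusted p = 0.0196 and 0.029). SCARNA7 differed by 0.32, SCARNA9L by 0.03 and SCARNA27 by -0.25, with overlapping groups. SCARNA10 read 7.31, 7.22 and 7.14 against 6.98, 7.54 and 6.94 (difference -0.07, SE 0.20; limma adjusted p = 0.845, 95% interval -0.54 to 0.41).

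Of the box H/ACA snoRNA probes 50 of 56 were not called, where 81.3% of all tested probes were not. SNORA12 had the greatest rise. It read 4.61, 4.61 and 4.76 on the control arrays and 7.06, 9.28 and 7.47 on the arrays labelled SLAMF1 shRNA (difference 3.28, SE 0.51; limma adjusted p = 0.00504). Its host gene by position, CWF19L1, differed by 0.00 (SE 0.17). SNORA84, which lies in IARS1, read 5.25, 4.46 and 4.86 against 5.71, 6.63 and 5.66 and rose by 1.14 (SE 0.32; limma adjusted p = 0.043), a call that leaving out any 1 control array ended; over all alternatives its adjusted p reached 0.152. SNORA79 was undetected on control arrays and detected on the 3 others (at least 1.19-fold higher), and was not called (limma adjusted p = 0.0754).

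Sequence in the RefSeq tables used here covers the 3′ parts of 2 of the RNAs that rose, because microRNA hairpins are annotated over them, and both end as H/ACA RNAs do, with the trinucleotide ACA shortly before the end of the RNA (capitals). The first is from SNORA84, at chr9:92292458-92292547 on the minus strand of GRCh38.p14. It begins at base 47 of the 133-base snoRNA and runs 3 bases past its end. The second is from SCARNA16, at chr17:77089417-77089497 on the plus strand, from base 111 of 187 to 4 bases past the end.
SNORA84 with MIR3651: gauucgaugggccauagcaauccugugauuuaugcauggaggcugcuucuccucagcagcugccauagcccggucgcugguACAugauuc
SCARNA16 with MIR6516: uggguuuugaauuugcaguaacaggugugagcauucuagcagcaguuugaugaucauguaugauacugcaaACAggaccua
MicroRNA precursors as a class were tested with 30 probes. Of these 1 rose (MIR574, difference 0.65, limma adjusted p = 0.0465) and 0 fell, beside 9.24% and 9.42% of all tested probes.

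Of the 4 SNORA probes that fell, 3 lie in TAF1D and 1 in SNHG12. SNORA61 fell most. It read 8.69, 6.68 and 7.07 on the control arrays and 5.3, 4.57 and 5.34 on the others (difference -2.41, SE 0.50; limma adjusted p = 0.0153). SNORA25 read 7.15, 6.15 and 6.48 against 5.08, 4.33 and 5.12 (difference -1.75, SE 0.32; limma adjusted p = 0.00896). SNORA18 and SNORA32 differed by -1.26 (SE 0.26) and -1.18 (SE 0.31), with limma adjusted p = 0.0148 and 0.0384. The groups of all 4 were separate, and control replicate 1 was the highest array in each. Without control replicate 3 SNORA18 and SNORA32 lost the call, and SNORA32 lost it also without control replicate 1 and without replicate 1 or 3 labelled SLAMF1 shRNA (limma adjusted p up to 0.131). SNORA17B was detected on all control arrays and none of the others, at least 1.40-fold lower (limma adjusted p = 0.051).

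Box C/D snoRNAs outside the U3 and U13 genes fell in 13 of 52 tested probes, beside 9.42% of all tested probes called lower. Of the 52, 24 lay wholly below control (21.8% of all tested probes did). SNORD80 read 7.96, 7.01 and 7.21 on the control arrays and 5.62, 5.85 and 5.56 on the arrays labelled SLAMF1 shRNA (difference -1.72, SE 0.26; limma adjusted p = 0.00451). SNORD52 read 6.88, 5.91 and 6.17 against 4.99, 4.38 and 4.82 (difference -1.59, SE 0.29; limma adjusted p = 0.0089). SNORD96A read 7.07, 6.67 and 6.68 against 5.35, 5.14 and 5.24 (difference -1.56, SE 0.18; limma adjusted p = 0.00127). In each of these 3 every control array lay above every array of the other group.

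The SNORD14 family, which guides methylation of small-subunit ribosomal RNA, fell in all 3 of its tested copies. SNORD14C read 7.13, 6.72 and 6.68 on the control arrays and 5.42, 5.08 and 5.3 on the others (difference -1.58, SE 0.19; limma adjusted p = 0.00165). SNORD14A differed by -1.44 (SE 0.25; limma adjusted p = 0.00783). SNORD14D was detected on all control arrays and on none of the others, at least 2.42-fold lower (limma adjusted p = 0.00918). The copies are alike in sequence, as are SNORD96A and SNORD96B, and the probes may not separate them. SNORD36A read 7.99, 6.92 and 6.90 against 6.08, 5.95 and 6.0 (difference -1.26, SE 0.30; limma adjusted p = 0.0259).

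Detection on all control arrays and none of the others also held for SNORD99 (at least 2.39-fold lower), SNORD49A (at least 1.52-fold lower), SNORD96B (at least 1.48-fold lower) and SNORD73A (at least 1.27-fold lower), of which all but SNORD73A were called, with limma adjusted p = 0.0144, 0.0319 and 0.0159. The remaining 3 called probes were SNORD31 (-1.24), SNORD16 (-0.98) and SNORD139 (-0.75), with limma adjusted p = 0.00642, 0.0457 and 0.0255; they were named after their values were seen. Of the 13 calls, those of SNORD49A, SNORD139, SNORD16, SNORD36A, SNORD96B, SNORD99 and SNORD14D were lost without control replicate 3 and those of the first 5 also without replicate 3 labelled SLAMF1 shRNA, with limma adjusted p up to 0.15 (SNORD16) over all alternatives. SNORD49A, SNORD139 and SNORD16 lost the call without any 1 control array. In limma 0 of these 52 probes were called higher, and 1 was higher at an unadjusted p under 0.05. The most positive differences, 0.98 for SNORD43 and 0.73 for SNORD46, did not pass the test.

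**Figure D3:**
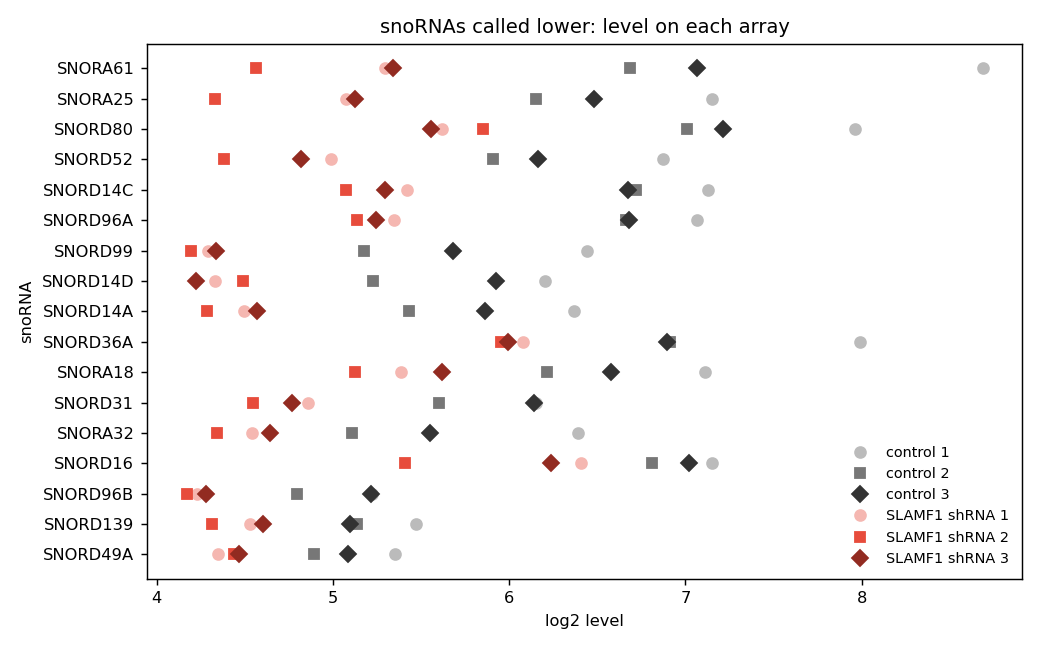
Log2 level on each of the 6 arrays (grey, control; red, labelled SLAMF1 shRNA) for the 17 snoRNA probes called lower, ordered by log2 difference. Every red symbol lies left of every grey symbol in its row, control replicate 1 is the rightmost in all 17, and SNORA61 has the widest spread among control arrays, from 6.68 to 8.69.

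Members were also grouped by position in the genome. This grouping was chosen after values were seen and is a description. Tested members that lie outside any longer annotated gene, which are the U3, U13, U1, U6, 7SK and Y RNA probes together with RNU4-2, RNU105C and SNORA50C, rose in 11 of 16 cases and fell in 0. Of these, the SNORD and SNORA probes rose in 4 of 5 cases, 3 of them for the near-identical U3 copies. SNORD and SNORA probes inside a protein-coding gene rose in 2 of 79 cases and fell in 11. Those inside a non-coding host gene rose in 0 of 28 and fell in 6, and 24 of these 28 had a negative difference. These falls are 13.9% and 21.4%, beside 9.42% of all tested probes called lower. The rises in this paragraph stand beside 9.24% of all tested probes called higher. A negative difference was found in 9696 of all 19073 tested probes. SCARNA probes, which rose in 7 of 13 cases, all lie inside longer genes, and the RNU probes inside longer genes rose in 5 of 6 cases. Strand was not compared, so a longer gene at the same place need not be the host.

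Differences of host transcripts, each read by a single probe, showed little relation to those of the small RNAs inside them. For 95 SNORD, SNORA and SCARNA probes the gene around them was tested as well (67 genes, the probe with the highest mean level for each). Across these 95 pairs the log2 differences correlated at Pearson r = -0.015 and Spearman rho = -0.122, and 44 pairs shared a sign. The pairs are not independent, since they share arrays and some share a host. They also depend on the probe taken for each host. Over their tested probes SNHG7 ran from -0.83 to 0.97, RPL13 from -0.75 to 0.30 and NOP56 from -0.85 to -0.34. Correlations with other host probes were not computed. Of the 14 small RNA probes that fell and had a tested host, the host fell in 2 cases, rose in 2 and was not called in 10. Both cases of joint decrease were in HSPA8, which encodes a constitutive heat shock protein and holds SNORD14C and SNORD14D. HSPA8 read 12.67, 13.17 and 13.26 on the control arrays and 11.44, 11.14 and 11.33 on the others (difference -1.73, SE 0.21; limma adjusted p = 0.00151). In the opposite direction, SNHG1, the host of SNORD31, rose by 0.90 (SE 0.23; limma adjusted p = 0.0319), and SNHG32, the host of SNORD52, rose by 1.14 (SE 0.25; limma adjusted p = 0.0181). Among the SCARNA probes that rose, the gene around SCARNA14, TIPIN, fell by 0.81 (SE 0.21; limma adjusted p = 0.0337), and 4 other hosts were not called.

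Several snoRNAs of 1 host moved alike. All 5 tested snoRNAs of TAF1D, a subunit gene of an RNA polymerase I factor, had negative differences between -1.75 and -0.32, and 3 of them fell, whereas TAF1D read 6.84, 5.96 and 6.12 against 6.52, 6.59 and 6.40 (difference 0.20, SE 0.25; limma adjusted p = 0.621). The 3 snoRNAs of SNHG12 differed by -2.41 (SNORA61), -1.49 (SNORD99) and -0.71 (SNORA16A), of which the first 2 fell, and SNHG12 itself by -0.69 (SE 0.26; limma adjusted p = 0.114). The 4 tested snoRNAs of SNHG1 were all negative, from -1.24 to -0.59, beside the rise of SNHG1. In RPL3, which encodes a ribosomal protein, the 3 snoRNAs ran from -0.75 (SNORD139) to 0.98 (SNORD43) while RPL3 differed by -0.01. Probes of the same host share its transcript and are not independent.

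**Figure D4:**
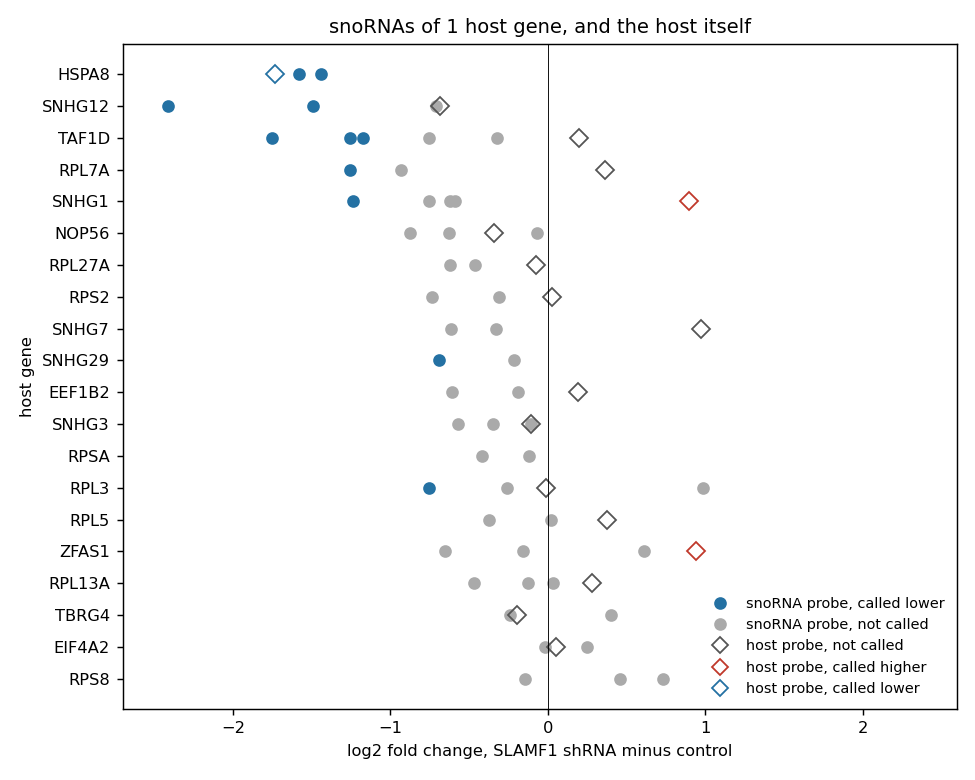
Log2 difference (arrays labelled SLAMF1 shRNA minus control) of the tested snoRNA probes of each gene that holds 2 or more of them (filled circles) and of the gene's own probe where it was tested (open diamonds), with colour for the limma call. TAF1D and SNHG1 have their own symbol to the right of 0 (0.20 and 0.90) and all of their snoRNAs to the left, and HSPA8 has all 3 symbols at or below -1.44.

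Many snoRNA host genes begin with a run of pyrimidines at the transcription start, the hallmark of transcripts whose translation follows growth signals. Start regions of 4 hosts of snoRNAs that fell are shown for this reason, from RefSeq promoters of GRCh38.p14, each with 40 bases before and 10 bases from the annotated start. Capitals mark a run of at least 5 C or T that begins with C within 10 bases of the start. The windows are chr1:28581864-28581913 for SNHG12, chr11:93741486-93741535 for TAF1D, chr5:181243897-181243946 for RACK1 and chr1:173869036-173869085 for GAS5, all on the minus strand.
SNHG12: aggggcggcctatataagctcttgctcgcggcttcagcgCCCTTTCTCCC
TAF1D: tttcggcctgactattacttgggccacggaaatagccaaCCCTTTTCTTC
RACK1: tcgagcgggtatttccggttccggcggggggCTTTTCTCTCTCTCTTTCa
GAS5: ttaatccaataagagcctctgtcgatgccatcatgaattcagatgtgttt
RACK1 holds SNORD96A, GAS5 holds SNORD80, and neither had a tested probe of its own. Read in the direction of the RNA, such a run was found in 36 of 60 hosts of tested SNORD and SNORA members (60.0%). Only hosts with a RefSeq promoter were counted. The run was found in 8 of 13 hosts of members that fell (61.5%) and in 31.4% of all 35116 promoters. The 13 hosts are among the 60, and the shares were not tested against each other. AMMECR1, 1 of these 13, was counted as without a run. Its stretch of C and T crosses the start but begins more than 10 bases before it. The window of GAS5 shows no run at the annotated start used here. A single annotated start was taken per host, and any others were not examined.

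Arrays were also compared within their own group over all tested probes of a class, called or not. On replicate 2 labelled SLAMF1 shRNA 11 of 13 SCARNA, 15 of 17 RNU, RN7SK and RNY, 34 of 56 SNORA and 32 of 56 SNORD probes read above both other arrays of that label, where 44.5% of all tested probes did. On control replicate 1 it was 5 of 13 SCARNA, 14 of 17 RNU, RN7SK and RNY, 37 of 56 SNORA and 44 of 56 SNORD probes that read above both other control arrays, where 38.5% of all tested probes did. A call rests on these same arrays, so the probes called are not counted separately.

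The increase was present on each of the 3 arrays, though unequal. Relative to the control mean, the median of the SCARNA probes was 0.60, 1.96 and 0.81 on replicates 1, 2 and 3 labelled SLAMF1 shRNA. For the RNU, RN7SK and RNY probes it was 1.20, 1.97 and 1.39, and for the SNORD3 and SNORD13 probes 2.6, 3.80 and 2.73. The other 52 SNORD probes had medians of -0.46, -0.27 and -0.43, and control replicate 1 was at 0.26. Over all tested probes the same medians lay within 0.04 of 0. Within its group replicate 2 exceeded the mean of the others in each class median. These medians were 1.01 for SCARNA, 0.80 for RNU, RN7SK and RNY, 0.21 for SNORD and 0.18 for SNORA probes. After median centring instead of quantile normalization they became 0.31, 0.15, -0.022 and -0.062. The same within-group median over all probes was not computed for that setting. Between the groups, the median difference of all tested probes was then -0.14. What sets replicate 2 apart was not tested.

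**Figure D5:**
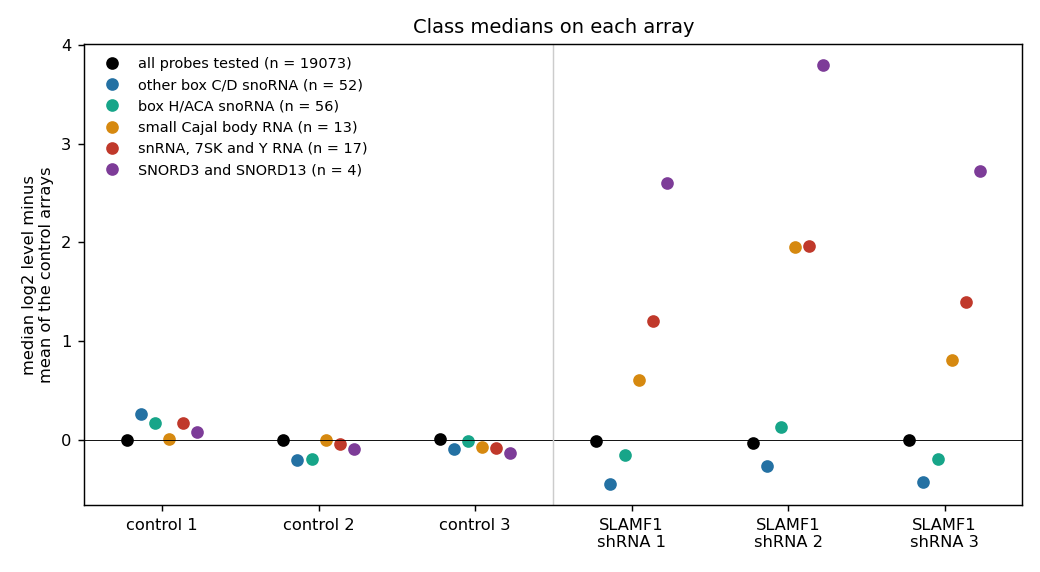
For each array, the vertical axis gives the median over a class of the log2 level minus the mean of the control arrays for the same probe. Control arrays lie between -0.21 and 0.26 for the remaining box C/D probes and between -0.07 and 0.00 for SCARNA, SNORD3 and SNORD13 rise to 2.6, 3.80 and 2.73 on the arrays labelled SLAMF1 shRNA, and the remaining box C/D probes lie below 0 on all 3 of those.

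Transcripts of protein partners of the snoRNAs were called lower or not called, except for PIH1D1. The lists were chosen with earlier results known, and 9.24% of all tested probes were called higher and 9.42% lower. Of the box C/D core, which binds and methylates with the guide RNA, 3 of 8 tested probes fell and 0 rose (median -0.69 beside -0.01 over all probes): NOP58 fell by 0.99 (limma adjusted p = 0.00877) and 2 of the 3 probes of NOP56 by 0.85 and 0.83 (adjusted p = 0.0187 and 0.0371), while the methyltransferase FBL differed by 0.20 (adjusted p = 0.635). Of the H/ACA core 3 of 13 fell and 0 rose (median -0.61). GAR1 fell by 1.22, the pseudouridine synthase DKC1 by 0.67 and the assembly factor NAF1 by 0.64 (limma adjusted p = 0.0492, 0.0297 and 0.0314), although 3 further GAR1 probes were not called. Of the assembly and transport factors 6 of 17 probes fell and 1 rose (median -0.42), with NOLC1, a nucleolar phosphoprotein, at -1.77, NUFIP1 at -1.07 and PIH1D1 at 1.25 (limma adjusted p = 0.0108, 0.0361 and 0.0339).

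Transcripts of proteins that handle spliceosomal RNAs were called lower more often than higher, except in the minor spliceosome, where none were called. Among all tested probes 9.24% were called higher and 9.42% lower. Of the SMN complex and snRNA transport 9 of 23 probes fell and 2 rose (median -0.72). GEMIN5, which recognises the snRNA, read 7.66, 8.02 and 8.01 on the control arrays and 6.60, 5.47 and 6.61 on the others (difference -1.67; limma adjusted p = 0.0113), WDR77 fell by 1.18 and both GEMIN8 probes rose, by 0.96 and 0.95 (adjusted p = 0.0058, 0.015 and 0.00688). Of Sm, LSm and U1 or U2 proteins 6 of 28 fell and 0 rose (median -0.26), led by SNRPA1 at -0.97, SNRPF at -0.82 and SNRPB2 at -0.76 (limma adjusted p = 0.0129, 0.0188 and 0.0185). In the minor spliceosome 0 of 13 probes were called in limma (median 0.09); 2 were lower at an unadjusted p under 0.05, and the lowest adjusted p was 0.071, for RNPC3.

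Transcripts for partners of 7SK and of Y RNAs were called in part, where 9.24% of all tested probes were called higher and 9.42% lower. Among 12 probes of the 7SK particle and P-TEFb, LARP7, which binds and stabilises 7SK, fell by 1.18 in 1 of its 2 probes (limma adjusted p = 0.0194), and HEXIM2 and the kinase CDK9 rose by 0.98 and 0.85 (adjusted p = 0.0336 and 0.0103); the median was -0.05. Of 7 probes for Y RNA binding proteins 2 fell and 0 rose (median -0.64). SSB, which encodes La and binds new RNA polymerase III transcripts, read 10.20, 9.60 and 10.08 against 8.42, 8.19 and 8.27 (difference -1.67, SE 0.20; limma adjusted p = 0.00155), with no overlap. NCL fell by 0.80 in 1 of its 2 probes (limma adjusted p = 0.0337), and the 4 probes of RO60, the Ro60 protein, were not called.

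Counts for transcription factors, trimming factors and host genes stand beside 9.24% of all tested probes called higher and 9.42% called lower. Of RNA polymerase III and its factors 4 of 19 probes fell and 2 rose (median -0.15). POLR3G, a subunit of the polymerase, fell by 1.85 and 1.32 in 2 of its 3 tested probes and TBP by 1.33 (limma adjusted p = 0.000916, 0.0131 and 0.00223). Of factors for snRNA transcription and end formation 2 of 29 fell and 1 rose (median -0.34): ELL2 at -1.32, INTS8 at -0.84 and INTS11, the endonuclease of the Integrator complex, at 1.10 (limma adjusted p = 0.04, 0.0222 and 0.0341). Of the RNA exosome and small RNA trimming factors 3 of 25 fell and 1 rose (median -0.35). ZCCHC7, part of the complex that tails nuclear RNAs for the exosome, rose by 1.75, and both EXOSC3 probes fell by 1.22 (limma adjusted p = 0.000947, 0.00267 and 0.00913). Non-coding snoRNA hosts rose in 5 of 22 probes and fell in 2 (median 0.39), led by SNHG8 at 1.56, SNHG9 at -1.15 and SNHG32 at 1.14. Protein-coding hosts fell in 15 of 78 and rose in 0 (median -0.11), led by both HSPA8 probes, at -1.74 and -1.73. Next was 1 probe of RCC1 at -1.47 (limma adjusted p = 0.0327), detected on 2 of 3 arrays labelled SLAMF1 shRNA. Another RCC1 probe was called at -0.71 (limma adjusted p = 0.029), and a further one at -0.69 was not (limma adjusted p = 0.176).

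Other RNAs that lack or need no stable tail were examined beside the members. Their counts stand against 9.24% of all tested probes called higher and 9.42% called lower. Of 7 short structured RNAs 4 rose and 0 fell, and 3 of these 4 (TERC, RMRP and VTRNA1-1) were undetected on the control arrays and entered the test through the other group. The median over the 7 was 1.37, or 1.15 with undetected probes at their bound. TERC, the template RNA of telomerase, is itself an H/ACA RNA and read 4.22, 4.24 and 4.16 on the control arrays and 6.66, 7.46 and 6.75 on the others, at least 5.56-fold higher (limma adjusted p = 0.000393). RMRP, the RNA of a ribonuclease that acts on ribosomal RNA precursors, was at least 3.26-fold higher and VTRNA1-1, a vault RNA, at least 2.23-fold higher (limma adjusted p = 0.000772 and 0.0361). VTRNA2-1 rose by 2.12 (limma adjusted p = 0.00277). RN7SL1, RPPH1 and BCYRN1 differed by 0.24, 0.60 and -0.83 and were not called. Replication-dependent histone genes, whose messengers end in a stem-loop, rose in 18 of 51 probes and fell in 1 (median 0.52, also with undetected probes at their bound). Of the 18, 7 were undetected on the control arrays and entered the test through the other group. H1-10, a linker histone that the list took in by its name although it is known as replication-independent, rose by 2.05 and H3C13 by 1.73, and H3C14, one of the 7, was at least 2.67-fold higher (limma adjusted p = 0.00657). On replicate 2 labelled SLAMF1 shRNA 34 of the 51 histone probes and 6 of the 7 structured RNAs were at their highest, where 33.1% of all tested probes were. Whether the small RNAs and these transcripts share a cause was not tested.

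The summed level of all T cell marker probes, on the scale of background-corrected intensity, ranged from 208 to 215 on the control arrays and from 213 to 219 on the others, that of monocyte and macrophage markers from 234 to 239 and from 232 to 259, and that of erythroid markers from 132 to 138 and from 132 to 141. CSF1R, a monocyte marker, was undetected on control arrays and detected on the 3 others (at least 1.53-fold higher; limma adjusted p = 0.0114). ITGAM, another myeloid marker, was detected on the 3 control arrays and undetected on the others (at least 1.06-fold lower) and was not called (limma adjusted p = 0.134). LYZ differed by -0.30 and was not called. B cell markers ranged from 7170 to 7420 and from 15700 to 18200. CD22, CD79A and CD79B were higher by 2.37, 2.11 and 2.0 (limma adjusted p = 0.00291, 0.00053 and 0.00316), each at its most changed probe. A further CD79A probe differed by 0.51 and was not called (limma adjusted p = 0.226). For MS4A1, 1 probe was lower by 1.25 (limma adjusted p = 0.028) and another differed by -1.45 without a call (limma adjusted p = 0.0551). The part of these markers in the small RNA differences was not tested.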

How the data were processed

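Gene expression of 6 Mec-1 samples was measured, 3 per shRNA label. The deposited values are probe intensities of Illumina beadchips, linked to GenomeStudio in the submitters' processing notes, with a detection p-value per probe and array, per the file headers. A second deposited table held intensity values whose normalization the labels do not state; 100% of them came within 1% of a quantile normalization of the signals. It served as an alternative. Mean signals per array ranged from 208 to 294, and with 3 arrays per group their number limits the precision. No pair of arrays (0 of 15) held identical values.

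Of 47323 probes listed, 2 had no value. Gene symbols came from the platform annotation, which gave 30113 probes 1 symbol and 8 several, and were updated through the gene identifier for 30074 against RefSeq (GRCh38.p14); all 325 members matched a RefSeq gene. The microRNA hairpins and promoters printed are RefSeq's. Intensities were corrected with limma's nec (background from the detection p-values, offset 16), log2-transformed and then quantile-normalized, which understates changes of dim probes. R 4.3.3 and limma 3.58.1 (lmFit, eBayes) were used, each probe tested separately, with Benjamini-Hochberg adjustment over 19073 probes and a threshold of 0.05. The script was tested on simulated data. For a probe undetected on all arrays of 1 group the fold is a lower bound ("at least"): the dim group's level was replaced on each array by the lowest signal of any detected probe, unless its own was higher.

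All tested RNU, RN7SK, RNY and SCARNA members are named, up to 8 called SNORD and 8 SNORA members in each direction, members undetected in 1 group, up to 3 called members of each list, and hosts of named snoRNAs. The members, lists and tests were chosen with earlier results of these data known. Alternatives concerned the background correction, offset, normalization, source table, detection filter, probe choice, variance model, weights per array, a block for replicate number and the omission of each array. The combined omission of control replicate 1 and replicate 2 labelled SLAMF1 shRNA was chosen after seeing the data.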

Additional observations from a re-analysis of the deposited data

How the results depend on the processing

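Of the 42 called members, 13 of 25 higher and 7 of 17 lower kept their call in every one of the 18 alternatives that still tested them, and no called member reversed. The 13 were SNORD13, SNORD3A, SNORD3C, SNORD3D, SNORA12, SCARNA9, RNU1-1, RNU1-3, RNY1 and both probes of RNU11 and of RNU6ATAC, and the 7 were SNORD31, SNORD14A, SNORD14C, SNORD96A, SNORD52, SNORD80 and SNORA25. Over the 110 named probes 1590 of 1917 values kept direction and side of the threshold, 273 lost the call, 39 gained it and 15 reversed, none of them called. The reversed values were 0.039 for CWF19L1 with cyclic loess, -0.012 with array weights and -0.064 with 2 arrays a group for RNU6-1, and -0.057 for TAF1D with median centring. The others came from leaving out single arrays, over which the log2 difference ranged from -0.12 to 0.063 for CWF19L1, -0.11 to 0.098 for GTF2A1, -0.14 to 0.79 for RNU6-1, -0.26 to 0.038 for SCARNA10 and -0.021 to 0.13 for SCARNA9L.

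SNORD probes called higher numbered 7 with array weights and 7 with 2 arrays a group. SNORD probes called lower numbered 8 with no background correction, 8 in the second deposited table, 5 with detection p under 0.01 on all 6 arrays, 24 with array weights and 21 with 2 arrays a group, and 6 to 20 without single arrays. SNORA probes called higher numbered 1 with no background correction, with offset 50, with median centring and in the second deposited table, 0 of the 19 tested under the stricter detection filter, 6 with array weights, 5 with 2 arrays a group, and 1 to 3 without single arrays. SNORA probes called lower numbered 2 with no background correction, 2 in the second deposited table, 1 with no filter on dim probes, 1 under the stricter filter, 7 with 1 probe per gene, 15 with array weights and 11 with 2 arrays a group, and 2 to 10 without single arrays. SCARNA probes called higher numbered 1 with no background correction, 2 with offset 50, 1 in the second deposited table, 2 with no filter and 1 under the stricter filter, and 1 to 9 without single arrays. RNU, RN7SK and RNY probes called higher numbered 5 of 7 tested under the stricter filter and 7 to 12 without single arrays, and 1 was called lower with no filter and with array weights. The stricter filter tests fewer probes, and the cause of the other shifts was not tested. With array weights replicate 2 labelled SLAMF1 shRNA had a weight of 0.121 and 20.8% and 22.6% of all probes were called higher and lower. With 2 arrays a group these shares were 18.6% and 19.7%, and without 1 control array 3.86% to 4.99% and 3.83% to 5.35%, against 9.24% and 9.42% with all arrays.

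The class medians by which replicate 2 exceeded the others of its group moved as follows. For SCARNA, 1.01 became 0.53 with no background correction, 0.70 with offset 50, 0.31 with median centring, 0.80 with cyclic loess, 0.54 in the second table, 0.43 with no filter and 0.65 under the stricter filter. For RNU, RN7SK and RNY, 0.80 became 0.46 with no background correction, 0.57 with offset 50, 0.15 with median centring and 0.46 in the second deposited values. SNORD reversed to -0.022 and SNORA to -0.062 with median centring, and they were 0.49 and 0.53 under the stricter filter. Replicate numbers did not pair the samples (correlations of deviations -0.219, -0.129 and 0.235); with the replicate block SNORA probes called higher went from 2 to 1, and 21 higher and 16 lower members were called. Fits without 1 array leave 2 arrays in its group. In tests on simulated data of this size only part of the changes of 1 log2 unit were called, so absence of a call does not show absence of a difference, least for probes near background.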
